A study of Mus musculus with 17 samples.

Results

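AP-1 and immediate early genes were followed in sorted mouse cardiac fibroblasts (CFs) over the first days after myocardial infarction. The 10 genes were *Fos*, *Fosb*, *Fosl1*, *Fosl2*, *Jun*, *Junb*, *Egr1*, *Ier2*, *Ier3* and *Atf3*, chosen by name from the 31053 genes of the count table. All 10 reached 10 counts in 3 or more libraries, as did 14030 genes in all, and these were tested. All mice were C57BL/6 animals of 8 to 10 weeks with an infarct and the genotype Collagen1a1-GFP+, in which GFP driven by the *Col1a1* promoter marks collagen-producing cells. Hearts were digested with enzymes, red cells were lysed, fibroblasts were enriched on magnetic columns, and GFP+/CD31-/CD45- cells were sorted. Of the 17 libraries, 4 were from 3 days post-infarction (dpi) and 1 from 5 dpi, and days 1, 2, 4 and 6 had 3 each. The study's methods call its libraries of a population biological replicates, and the labels tie none of them to an animal, so the p-values measure the spread between these libraries. No uninjured heart and no undigested tissue was analysed here. The part of the levels that arose during digestion and sorting therefore cannot be told apart from the part that was present in the infarct.

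Immediate early genes are transcribed within minutes of a stimulus, without new protein synthesis, through factors that are already present in the cell and are activated by MAP kinases. Proteins of the FOS and JUN families pair to form AP-1, which binds DNA at the AP-1 element TGACTCA, and the pairs differ in stability and strength. In fibroblasts AP-1 is known for the induction of proteases, cytokines and growth genes after serum, wounding or stress, and the same genes are also known to be switched on by enzymatic dissociation of tissues.

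The libraries held between 8021815 and 22029938 counts, and a floor of 3 counts was worth 0.136 to 0.374 CPM, a unit in which every library is scaled to the same total. The fibroblast label held in the data by level, since the 8 fibroblast markers had a summed level of 12400 to 38000 CPM, with counts in every library. Mural cell markers, each also with counts in every library, together lay between 20.8 and 161 CPM. Cardiomyocyte markers lay between 7.89 and 175 CPM and red cell markers between 1.92 and 2390 CPM. The 6 endothelial markers together lay between 1.43 and 32.4 CPM and the 10 leukocyte markers between 8.6 and 166 CPM. *Ptprc*, the gene of CD45, was at 0 in 12 libraries and *Cd3e* in all 17. The leukocyte markers *Csf1r*, *Cd68* and *Lyz2* had counts in every library, 31 to 405, 27 to 160 and 17 to 1428. The libraries of different days also differed in sex-linked genes. *Xist* was at 85.7 CPM or more in every 4 and 6 dpi library and at 0.161 CPM or less in every 3 and 5 dpi library, and the 3 dpi libraries carry names of another kind. The day thus cannot be told apart from these differences where 3 dpi is compared with 4 dpi. A comparison of 6 with 1 dpi is not free of them either. Genes of the Y chromosome together were at 10.6 to 60.0 CPM at 1 dpi and at 0.0646 to 0.768 CPM at 6 dpi. An average over 3 to 5 dpi mixes both kinds of library. These genes were at 42.8 to 59.1 CPM at 3 dpi, 0.0577 to 0.534 CPM at 4 dpi and 44.7 CPM at 5 dpi.

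The 10 genes together took between 0.46 and 0.994% of the counts of a library, with a median of 0.624%. This share was 0.536 to 0.792% at 1 dpi, 0.609 to 0.994% at 3 dpi and 0.561 to 0.613% at 6 dpi. Thus 9 of the 10 genes had 77 counts or more in every library, from the first to the last day, and *Fosl1* went down to 9 counts. Levels below are log2 CPM on normalised library sizes with a prior count of 2, so that a step of 1 is a doubling. They are compared between days and not between genes, since reads came from the 3′ ends of transcripts and were not scaled for length.

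**Figure D1:**
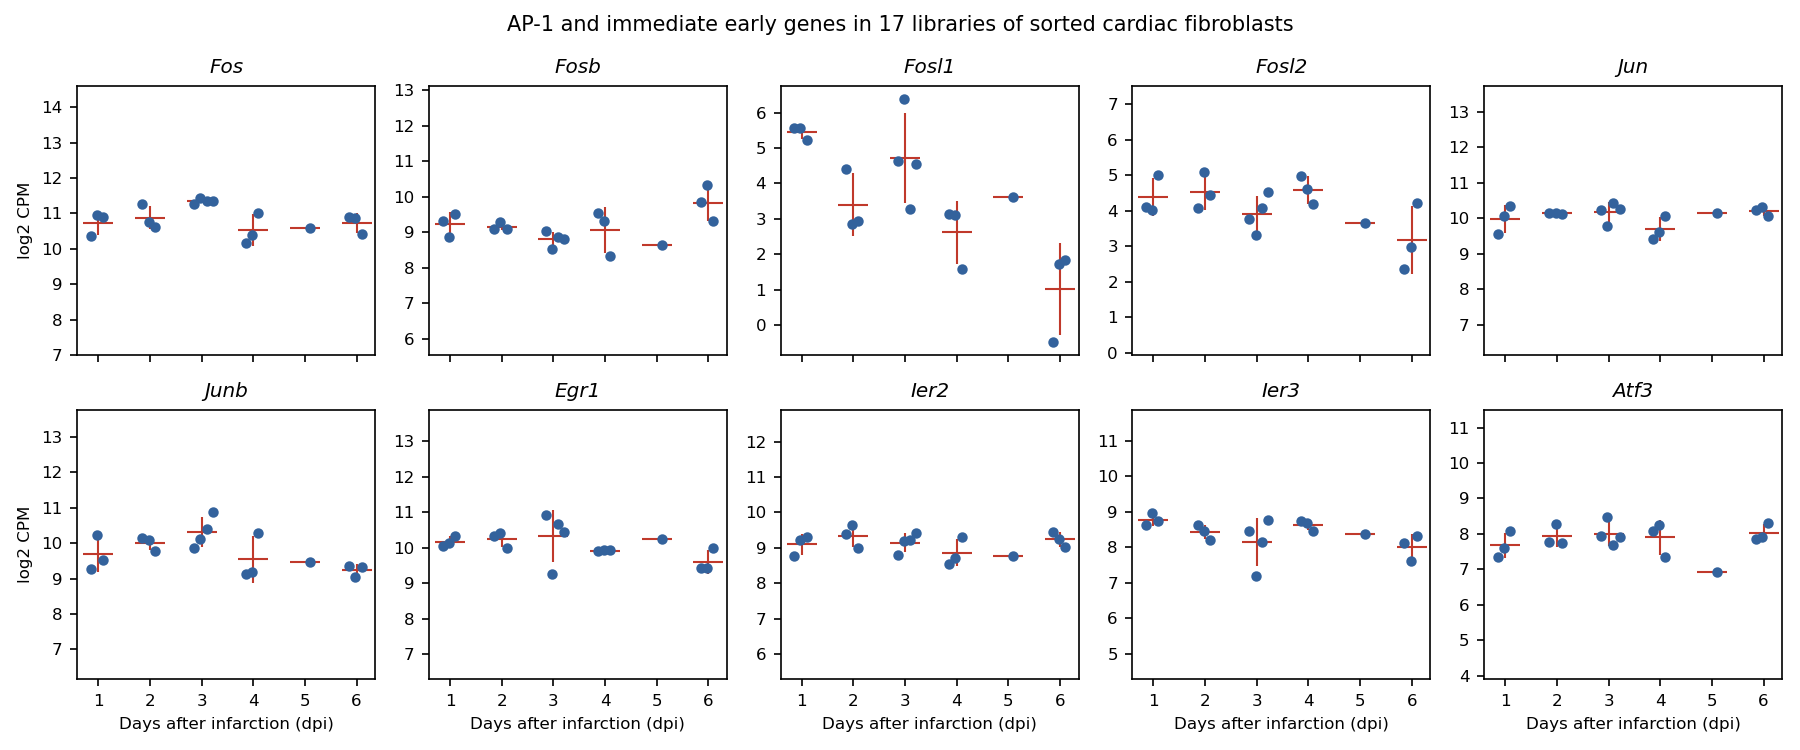
Level of each of the 10 genes (log2 CPM, vertical axis) against days after infarction (horizontal axis). Each point is 1 library, the horizontal red bars are day means and the vertical red bars 1 SD, and each panel spans the same range of log2 units. The panel of *Fosl1* runs from above 5 at 1 dpi to below 2 at 6 dpi, while the points of *Jun* stay between 9.42 and 10.44.

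*Fos* (ENSMUSG00000021250, chromosome 12, 85473890 to 85477273 on GRCm38, plus strand) encodes the founding FOS protein, which needs a JUN partner to bind DNA. Its promoter is shown because it is the textbook example of an immediate early promoter. In the 150 bases before the RefSeq start site (GRCm38.p6, chr12:85473740-85473889, plus strand) the capitals mark the letters TGACG, the core of the cAMP response element, at 129 and 66 bases before the start, and the TATA box TATAAA at 33 bases before it.
Fos: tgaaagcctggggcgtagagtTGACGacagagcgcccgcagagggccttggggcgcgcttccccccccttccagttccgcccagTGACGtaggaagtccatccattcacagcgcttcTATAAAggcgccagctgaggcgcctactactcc
The level of *Fos* was 10.35, 10.95 and 10.89 in the 1 dpi libraries, 11.26, 10.77 and 10.62 at 2 dpi, and 11.28, 11.43, 11.34 and 11.34 at 3 dpi. It was 10.16, 10.40 and 11.02 at 4 dpi, 10.58 in the 5 dpi library, and 10.91, 10.86 and 10.42 at 6 dpi. The 3 dpi libraries lay close together and above every library of the other days. They are also the libraries with names of another kind, so the day cannot be told apart from that difference. The day means spanned 0.82 on the log2 scale, against a pooled SD within days of 0.30.

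*Fosb* (ENSMUSG00000003545, chromosome 7, 19302696 to 19310051, minus strand) encodes a FOS protein whose short splice form is long-lived. Its level was 9.33, 8.87 and 9.52 at 1 dpi, 9.10, 9.28 and 9.08 at 2 dpi, and 9.03, 8.54, 8.87 and 8.82 at 3 dpi. At 4 dpi it was 9.55, 9.33 and 8.32, at 5 dpi 8.65, and at 6 dpi 9.86, 10.33 and 9.31. The highest day mean was that of 6 dpi, 9.83 ± 0.51 (SD, n = 3), and its libraries overlapped with those of 1 dpi.

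*Fosl2* (ENSMUSG00000029135, chromosome 5, 32135801 to 32157842, plus strand) encodes FRA2, a FOS protein without the strong activation domain of FOS itself. Its level was 4.12, 4.03 and 5.00 at 1 dpi, 4.07, 5.09 and 4.44 at 2 dpi, and 3.77, 3.32, 4.07 and 4.52 at 3 dpi. It was 4.98, 4.61 and 4.19 at 4 dpi, 3.66 at 5 dpi, and 2.35, 2.97 and 4.22 at 6 dpi. The lowest 2 of its 17 libraries were at 6 dpi, and the other 6 dpi library lay within the range of the 1 dpi libraries.

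*Fosl1* (ENSMUSG00000024912, chromosome 19, 5447547 to 5455946, plus strand) encodes FRA1, the related protein that is classically induced later than FOS and by AP-1 itself. The level of *Fosl1* was 5.56, 5.57 and 5.23 at 1 dpi, from 371, 1145 and 764 counts. It was 4.42, 2.85 and 2.93 at 2 dpi, 4.63, 6.37, 3.27 and 4.56 at 3 dpi, and 3.14, 3.12 and 1.60 at 4 dpi. The 5 dpi library had 3.62 and the 6 dpi libraries had -0.47, 1.72 and 1.85, from 9, 37 and 45 counts. Every 1 dpi library lay above every library of 2, 4, 5 and 6 dpi, and every 6 dpi library below every library of 1, 2, 3 and 5 dpi. The day means spanned 4.42, against a pooled SD within days of 1.02. The gene overlaps *Ccdc85b* on the other strand, which had at most 345 counts, and the strand setting of the counting is not given in the sources used here.

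*Jun* (ENSMUSG00000052684, chromosome 4, 95049034 to 95052222, minus strand) encodes the JUN protein, which can pair with itself or with FOS proteins. Its level was 9.55, 10.05 and 10.34 at 1 dpi, 10.16, 10.15 and 10.13 at 2 dpi, and 10.24, 9.78, 10.44 and 10.25 at 3 dpi. It was 9.42, 9.61 and 10.07 at 4 dpi, 10.16 at 5 dpi, and 10.24, 10.32 and 10.05 at 6 dpi. The day means of *Jun* spanned 0.50, the pooled SD within days was 0.27, and neighbouring days in the order of the means overlapped throughout. *Junb* (ENSMUSG00000052837, chromosome 8, 84974484 to 84978718, minus strand) encodes a weaker activator than JUN that can hold JUN in check. Its level was 9.28, 10.24 and 9.52 at 1 dpi, 10.15, 10.08 and 9.78 at 2 dpi, and 9.87, 10.13, 10.39 and 10.88 at 3 dpi. It was 9.14, 9.18 and 10.30 at 4 dpi, 9.48 at 5 dpi, and 9.36, 9.05 and 9.34 at 6 dpi. The 6 dpi libraries of *Junb* lay below every 2 and 3 dpi library. *Junb* overlaps *Prdx2* and *Jun* overlaps *Junos*, both on the other strand, with at most 9555 and 32 counts.

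*Egr1* (ENSMUSG00000038418, chromosome 18, 34859823 to 34864984, plus strand) encodes a zinc finger factor that serum and growth factors induce together with FOS. Its level was 10.06, 10.12 and 10.34 at 1 dpi, 10.32, 10.42 and 9.98 at 2 dpi, and 10.92, 9.27, 10.66 and 10.45 at 3 dpi. It was 9.90, 9.94 and 9.93 at 4 dpi, 10.24 at 5 dpi, and 9.43, 9.42 and 10.00 at 6 dpi. Its lowest and its highest library were thus both at 3 dpi.

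*Ier2* (ENSMUSG00000053560, chromosome 8, 84661331 to 84662852, minus strand) encodes a small nuclear protein of the early response. Its level ranged from 8.76 to 9.31 at 1 dpi, from 9.01 to 9.64 at 2 dpi, from 8.79 to 9.42 at 3 dpi, from 8.56 to 9.31 at 4 dpi and from 9.03 to 9.44 at 6 dpi, with 8.76 at 5 dpi. These ranges overlapped across all days with replicates. *Ier3* (ENSMUSG00000003541, chromosome 17, 35821684 to 35822923, plus strand) encodes a stress-induced regulator of cell survival. Its level was 8.62, 8.96 and 8.74 at 1 dpi, 8.62, 8.47 and 8.20 at 2 dpi, and 8.46, 7.20, 8.14 and 8.78 at 3 dpi. It was 8.75, 8.68 and 8.46 at 4 dpi, 8.38 at 5 dpi, and 8.11, 7.62 and 8.33 at 6 dpi. Every 6 dpi library of *Ier3* lay below every 1 dpi library.

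*Atf3* (ENSMUSG00000026628, chromosome 1, 191170296 to 191218039, minus strand) encodes a stress-induced factor of the same leucine zipper class as FOS and JUN. Its level was 7.36, 7.61 and 8.08 at 1 dpi, 7.77, 8.28 and 7.74 at 2 dpi, and 7.93, 8.47, 7.70 and 7.92 at 3 dpi. It was 8.09, 8.26 and 7.35 at 4 dpi, 6.94 in the 5 dpi library, and 7.86, 7.92 and 8.31 at 6 dpi. The day means with replicates spanned 0.35, as much as the pooled SD within days, 0.35.

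Between 1 and 6 dpi, *Fosl1* fell, and it was the only one of the 10 genes that passed the test. Its level at 6 dpi was 18.5-fold lower, a log2 fold change of -4.21 (SE 0.73, 95% interval -5.73 to -2.69) with an adjusted p of 9.7e-04 in edgeR's quasi-likelihood test. DESeq2 also called 1 of the 10 genes, *Fosl1*, and the share of all genes that it called between these days is not given here. Of all genes tested, edgeR called 12.1%, 5.21% lower and 6.91% higher at 6 dpi, so that 1 of 10 is near the background share. The log2 fold change of *Fosl2* was -1.07 (95% interval -1.97 to -0.17, adjusted p = 0.11 by edgeR) and that of *Ier3* was -0.73 (-1.38 to -0.08, adjusted p = 0.13). *Fosl2* was called without replicate 3 of 6 dpi, its highest library of that day, at -1.79 (adjusted p = 0.0085 by edgeR), and *Ier3* without replicate 2 of 3 dpi, at -0.73 (adjusted p = 0.033). The fit without replicate 3 of 6 dpi called 2577 genes in all, against 1700 with all libraries. *Fosb* had 0.63 (-0.03 to 1.28) and *Fos* -0.01 (-0.61 to 0.59). The intervals of the 9 genes that were not called lay between -1.97 and 1.28. In bulk libraries, fewer cells that carry a transcript and less of it per cell cannot be told apart.

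Replicate 1 of 1 dpi had *Xist* at 211 CPM, within the 85.7 to 252 CPM of the 6 dpi libraries. Its summed level of Y chromosome genes was 10.6 CPM, above their 0.0646 to 0.768 CPM. Replicates 2 and 3 of 1 dpi had *Xist* at 19.0 and 3.08 CPM and Y chromosome genes at 60.0 and 59.0 CPM. The *Fosl1* level was 5.56 in replicate 1 and 5.57 and 5.23 in replicates 2 and 3. Sex-linked genes thus differed between 1 and 6 dpi. Cardiomyocyte markers rose between these days. Their sum was 17.1 to 34.8 CPM at 1 dpi and 74.5 to 175 CPM at 6 dpi, 5 of 5 tested markers rose, and *Ryr2* was at 0 in 10 of the 17 libraries. Of 5 mural cell markers 2 rose, *Cspg4* and *Rgs5*, and their sum went from 20.8 to 54.0 CPM at 1 dpi to 85.2 to 96.6 CPM at 6 dpi. The mitochondrial share was 1.45 to 1.86% at 1 dpi and 0.458, 0.425 and 1.71% in the 6 dpi libraries. The part of these differences in the result was not tested.

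**Figure D2:**
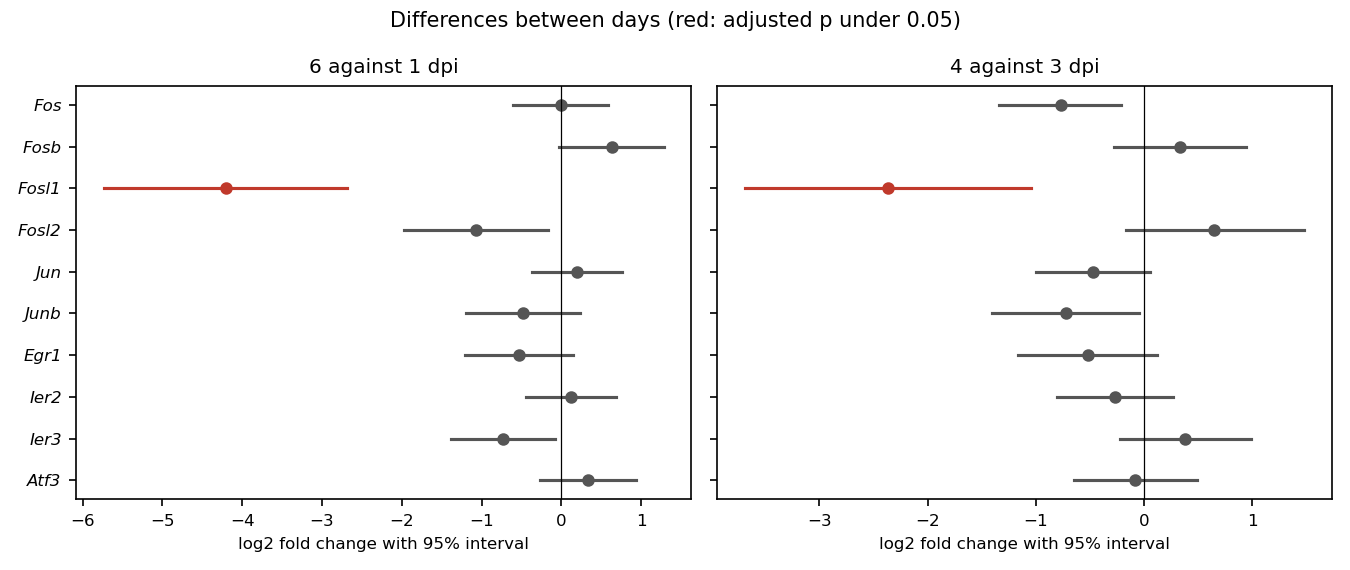
Log2 fold change (horizontal axis) of the 10 genes (vertical axis) for 6 dpi over 1 dpi and 4 dpi over 3 dpi, with 95% intervals from edgeR; the panels have axes of their own. *Fosl1*, in red, passed the threshold in both, at -4.21 and -2.37, and the other 9 genes did not.

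Over the time course as a whole, edgeR called *Fosl1* (adjusted p = 0.0019) and no other member, while it called 15.0% of all genes tested. DESeq2 called 26.8% of its genes and 3 of the 10, *Fosl1*, *Fosb* (adjusted p = 0.014) and *Junb* (adjusted p = 0.043). By edgeR, *Fosb* and *Junb* had adjusted p of 0.099 and 0.14. Both were called without replicate 3 of 4 dpi (adjusted p = 0.039 and 0.033 by edgeR), *Fosb* and *Fosl2* without replicate 3 of 6 dpi (0.042 and 0.024), and *Egr1* without replicate 2 of 3 dpi (0.026). The fit without replicate 2 of 3 dpi called 3466 genes in all, against 2099 with all libraries.

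The step from 3 to 4 dpi was the only step between neighbouring sampled days at which a member passed the test. *Fosl1* was lower at 4 dpi by a log2 fold change of -2.37 (SE 0.63, 95% interval -3.69 to -1.04), with an adjusted p of 0.0499 by edgeR, at the edge of the threshold. Of all genes, edgeR called 2.71%, and 1.08% lower. The call was lost without any 1 of 12 of the libraries. It was lost without replicate 2 of 3 dpi, the highest library of *Fosl1*, where the log2 fold change was -1.49 (adjusted p = 0.099), and without each of the 4 dpi libraries, with adjusted p of 0.13 to 0.15 and log2 fold changes of -2.59 to -2.03. Leaving out replicate 1 or 4 of 3 dpi, each of the 1 dpi libraries, replicate 2 or 3 of 2 dpi or replicate 2 of 6 dpi gave adjusted p of 0.055 to 0.067. *Fos* had a log2 fold change of -0.77 (95% interval -1.34 to -0.21) with an adjusted p of 0.14 by edgeR and of 0.031 by DESeq2, which called *Fos* and *Fosl1* and 3.21% of its genes as lower. *Junb* had -0.72 (-1.40 to -0.05, adjusted p = 0.24 by edgeR). Red cell markers moved with this step, from 1.92 to 26.9 CPM at 3 dpi to 309 to 2390 CPM at 4 dpi, and 4 of 5 rose; leukocyte markers were at 37.7 to 166 CPM at 3 dpi and 16.1 to 26.6 CPM at 4 dpi. Cardiomyocyte markers went from 7.89 to 11.3 CPM up to 39.9 to 67.5 CPM, with 3 of 5 called higher, *Tnnt2*, *Actc1* and *Myl2*, and the mitochondrial share from 0.321 to 0.782% up to 1.22 to 2.04%. Their part in the result was not tested.

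At the other steps edgeR called 0 of the 10 genes. Over all 14030 genes tested, 1063 had an unadjusted p under 0.05 by edgeR from 1 to 2 dpi. From 2 to 3 dpi these were 2567 genes, and from 4 to 6 dpi 2798. From 1 to 2 dpi, where 0.178% of all genes were called, 1 member had an unadjusted p under 0.05, *Fosl1*, with a log2 fold change of -1.87 (95% interval -3.20 to -0.54, adjusted p = 0.42 by edgeR), and -2.59 without replicate 1 of 2 dpi. From 2 to 3 dpi, with 2.94% of genes called, it was again *Fosl1*, at 1.55 (0.29 to 2.82, adjusted p = 0.17 by edgeR), with 0.68 without replicate 2 of 3 dpi and 2.25 without replicate 1 of 2 dpi. The differences between 2 and 3 dpi libraries given above limit this step as well. From 4 to 6 dpi, with 0.513% of genes called, 3 members had an unadjusted p under 0.05, *Fosl2* at -1.24 (-2.15 to -0.34), *Fosb* at 0.74 (0.08 to 1.40) and *Fosl1* at -1.52 (-2.96 to -0.09). *Fosl2* was called without replicate 3 of 6 dpi, at -1.96 (adjusted p = 0.011 by edgeR). That fit called 1402 genes in all, against 72 with all libraries. DESeq2 called 0 members at each of these steps, and 1, 1 and 3 had an unadjusted p under 0.05. For the transition window that the study singled out, 3 to 5 dpi averaged and set against 1 and 2 dpi, edgeR and DESeq2 called 0 members and 0 had an unadjusted p under 0.05, with 7.48% of all genes called by edgeR. Of all 14030 genes tested, 3032 had an unadjusted p under 0.05 by edgeR. The log2 fold changes in that comparison lay between -0.68 (*Fosl1*, 95% interval -1.64 to 0.27) and 0.00 (*Fos*, -0.43 to 0.43). Each day counted the same in the average, so the 1 library of 5 dpi weighed as much as all those of 3 dpi. With 1 library left out, *Atf3* ranged from -0.29 to 0.16 and *Fos* from -0.12 to 0.13.

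Libraries of the same day differed in several members at once. Replicate 1 of 1 dpi had the lowest level of its day for 7 of the 10 genes, *Fos*, *Jun*, *Junb*, *Egr1*, *Ier2*, *Ier3* and *Atf3*, and was also the library with the fewest counts, 8021815. Replicate 3 of 2 dpi was lowest for 8 genes. At 3 dpi, replicate 2 was lowest for *Fosb*, *Fosl2*, *Jun*, *Egr1* and *Ier3* and highest for *Fos*, *Fosl1* and *Atf3*. At 4 dpi, replicate 3 was highest for *Fos*, *Jun*, *Junb* and *Ier2* and lowest for *Fosb*, *Fosl1*, *Fosl2*, *Ier3* and *Atf3*. That library had the most mitochondrial counts of all, 2.04%, and the most red cell marker counts, 2390 CPM, and their part was not tested. How often these libraries were lowest or highest over all genes was not counted. The counts thus cannot be read as a trait of the 10 genes.

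**Figure D3:**
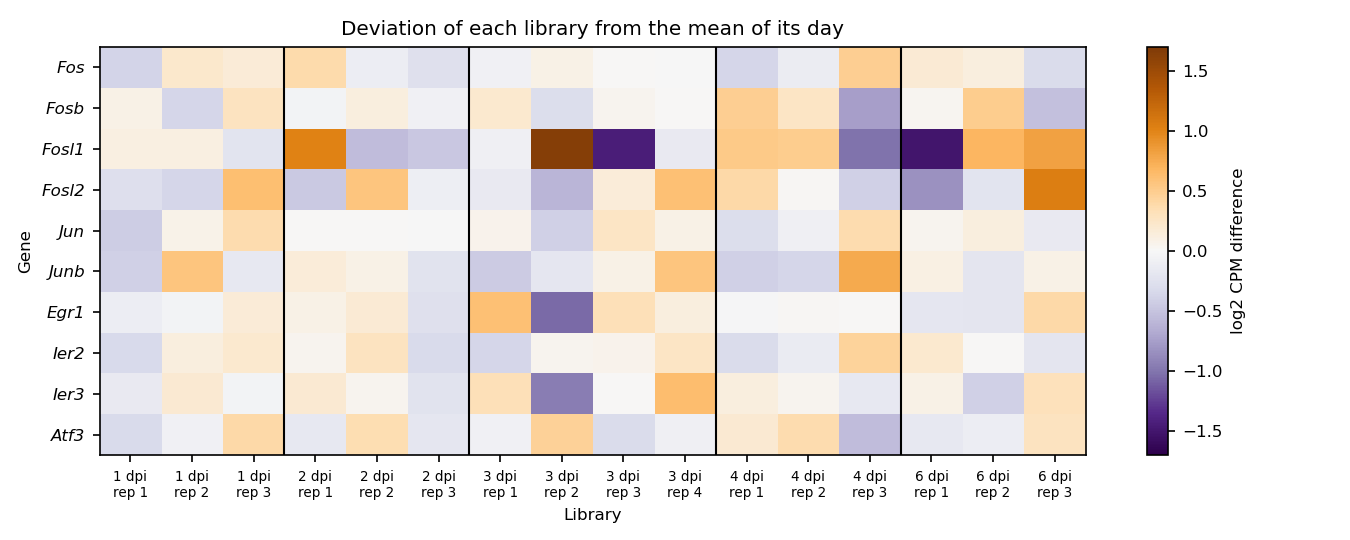
Deviation of each library from the mean of its day (colour, log2 CPM difference) for the 10 genes (vertical axis) in the 16 libraries of days with replicates (horizontal axis, rep for replicate, black lines between days). The strongest colours are those of *Fosl1* at 3 and 6 dpi, and in replicate 3 of 4 dpi *Fos*, *Jun*, *Junb* and *Ier2* are above the day mean while *Fosb* and *Fosl1* are below it.

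Genes that textbooks give as targets of AP-1 were followed as a list of 16, of which 14 could be tested. *Mmp10* and *Mmp13* had at most 7 and 6 counts in a library and were not tested. Between 1 and 6 dpi, 9 of the 14 fell and 0 rose, where 5.21% of all genes were called lower. The median log2 fold change was -2.01, against 0.03 over all genes tested. *Mmp3*, a matrix-degrading protease, fell 11-fold from 7.34 ± 0.18 (SD, n = 3) to 3.77 ± 0.75 (SD, n = 3), with a log2 fold change of -3.45 (SE 0.64, adjusted p = 0.0019 by edgeR). *Ccl2*, a chemokine that attracts monocytes, fell 8.07-fold (log2 fold change -3.01, SE 0.48, adjusted p = 4.3e-04), with -3.66 without replicate 3 of 6 dpi. *Plaur*, the receptor of urokinase, fell 6.68-fold (log2 fold change -2.74, SE 0.36, adjusted p = 9.1e-05). Among the others that fell were *Hmox1*, *Lif*, *Timp1*, *Cd44* and *Vegfa*, with log2 fold changes of -2.61 to -1.17, and *Il6* had -1.99 with an adjusted p of 0.084 by edgeR. These were named after their values were seen.

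The promoters of *Plaur* and *Mmp3* are shown because they carry the AP-1 element and their genes, like *Fosl1*, were lower at 6 than at 1 dpi. From 2 to 3 dpi the day mean of *Plaur* went from 5.41 to 5.34 and that of *Mmp3* from 7.29 to 5.92. That of *Fosl1* went from 3.40 to 4.71. A link between these genes was not tested. Capitals mark the element in the 150 bases before the RefSeq start site, at 69 bases before the start in *Plaur* (GRCm38.p6, chr7:24462333-24462482, plus strand). In *Mmp3* (chr9:7445672-7445821, plus strand) it lies 46 bases before the start and on the other strand, so that it reads TGAGTCA.
Plaur: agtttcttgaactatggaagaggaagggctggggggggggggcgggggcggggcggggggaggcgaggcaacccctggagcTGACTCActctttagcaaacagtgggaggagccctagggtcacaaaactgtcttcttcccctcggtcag
Mmp3: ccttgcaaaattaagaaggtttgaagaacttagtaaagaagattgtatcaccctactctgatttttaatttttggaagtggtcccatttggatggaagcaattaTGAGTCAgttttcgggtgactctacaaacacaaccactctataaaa
In RefSeq windows from 250 bases before to 50 after the start site, searched on both strands, the letters TGACTCA were present in 6 of the 9 targets with a window (*Il6*, *Lif*, *Mmp3*, *Mmp10*, *Mmp13* and *Plaur*), in 0 of the 7 members with one, and in 5.20% of all 32851 windows. The shorter letters TGACG, which also open the full cAMP response element TGACGTCA, were in 4 of the 7 members, *Fos*, *Fosb*, *Junb* and *Atf3*, and in 20.8% of all windows. TGACGTCA itself was in 0 of the 7 and in 1.79% of all windows, and the CArG box, the binding motif of serum response factor, in 0 and 1.63%. Sites further than 250 bases before the start lay outside the windows and could not be found. TATAAA was in *Fos* and *Junb* and in 13.6% of all windows. *Fosl1*, *Egr1* and *Ier2* were not among the matched windows. A match is only a run of letters in this window and says nothing of binding. The targets were listed as known targets of AP-1, so their share with TGACTCA is no result of these data. Of the 6 with these letters, *Mmp10* and *Mmp13* were not tested and *Il6* was not called between 1 and 6 dpi. Shares of the lists count genes, and shares of all windows count windows.

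Feedback inhibitors of MAP kinase signalling, which early response stimuli induce, were followed as a list of 13. Of these, 4 fell between 1 and 6 dpi and 0 rose, where 5.21% of all genes were called lower, with a median log2 fold change of -0.30. *Errfi1*, an inhibitor of the EGF receptor, fell 5.80-fold (log2 fold change -2.54, SE 0.36, adjusted p = 1.8e-04 by edgeR), and *Dusp5*, a phosphatase of ERK, had -1.32 (adjusted p = 0.0495) and *Spry4* -1.10 (adjusted p = 0.012). The fourth was *Spred1*, named after its values were seen, at -0.99 (adjusted p = 0.014). The call of *Dusp5* was lost without any 1 of 11 libraries, replicates 1 and 2 of 1 dpi, 2 of 2 dpi, 1, 3 and 4 of 3 dpi, 1 and 2 of 4 dpi and all those of 6 dpi, with adjusted p of 0.0532 to 0.19, and that of *Spry4* without replicate 1 of 6 dpi (adjusted p = 0.075). The count was 1 without replicate 1 of 6 dpi and 2 without replicate 2 of 6 dpi. Of 15 upstream kinases and factors 1 fell, a share near the 5.21% of all genes, *Map2k1*, a kinase of ERK, at -1.07 (adjusted p = 0.026 by edgeR), a call that was lost without replicate 1 of 1 dpi or replicate 1 or 2 of 6 dpi, with adjusted p of 0.073 to 0.15.

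Of 30 other immediate early genes, 2 fell between 1 and 6 dpi, a share near the 5.21% of all genes called lower. These were *Sgk1* at -1.61 (adjusted p = 0.02 by edgeR), a kinase of cell stress, and *Myc* at -1.41 (adjusted p = 0.0011), the growth factor-induced regulator of cell growth, and their median was -0.03. The call of *Sgk1* was lost without replicate 1 of 1 dpi or replicate 2 of 6 dpi, with adjusted p of 0.14 and 0.10. In the window of 3 to 5 dpi compared with 1 and 2 dpi, 3 rose and 1 fell, where 7.48% of all genes were called in either direction. *Plk2*, a stress-induced kinase, rose by 1.46 (adjusted p = 1.3e-04 by edgeR), *Ccn1*, a matricellular protein, by 0.81 (adjusted p = 0.0098), and *Arc* fell, at -1.59 (adjusted p = 0.0025) and at -0.97 without the 5 dpi library (adjusted p = 0.037). The other one that rose was *Egr4*, named after its values were seen. Of 13 other leucine zipper partners 0 were called between 1 and 6 dpi by edgeR, 5 had an unadjusted p under 0.05 and the median was -0.43. Over all 14030 genes tested, 3872 had an unadjusted p under 0.05 between these days.

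Heat shock genes, which protein damage and warm enzymatic digestion are known to induce, were higher at 1 dpi than at 6 dpi. Of 14 genes of this list, 9 fell and 0 rose, where 5.21% of all genes were called lower, with a median log2 fold change of -1.19. *Hspd1*, the mitochondrial chaperone HSP60, had -2.26 (SE 0.26, adjusted p = 2.2e-05 by edgeR), *Hsph1* -2.19 (SE 0.39, adjusted p = 0.0012) and *Hspa1b*, an inducible HSP70, -2.15 (SE 0.55, adjusted p = 0.016). The count was 5 without replicate 2 of 6 dpi. The call of *Hspa1b* was lost without replicate 2 of 6 dpi or replicate 2 of 1 dpi, with adjusted p of 0.081 and 0.08. The summed level of the list was 10700 to 12500 CPM at 1 dpi, 7320 to 11300 CPM at 2 dpi, 8250 to 9350 CPM at 3 dpi, 7830 to 8460 CPM at 4 dpi and 6580 to 9000 CPM at 6 dpi. Its day median was highest at 1 dpi, as was the mean of *Fosl1*. For 4 over 3 dpi the list had a median log2 fold change of 0.16 and *Fosl1* had -2.37. There 2 genes of the list had an unadjusted p under 0.05 by edgeR and moved in opposite directions, *Hspa1b* at -1.31 and *Hsph1* at 1.15. Over all 14030 genes tested, 2555 had such a p there. For 3 over 2 dpi the list had a median of -0.14 and *Fosl1* had 1.55, and 0 genes of the list had such a p. Over all genes tested, 2567 had it for 3 over 2 dpi. The AP-1 target list had medians of -0.47 for 4 over 3 dpi and 0.5 for 3 over 2 dpi. The part of digestion in these levels was not tested.

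**Figure D4:**
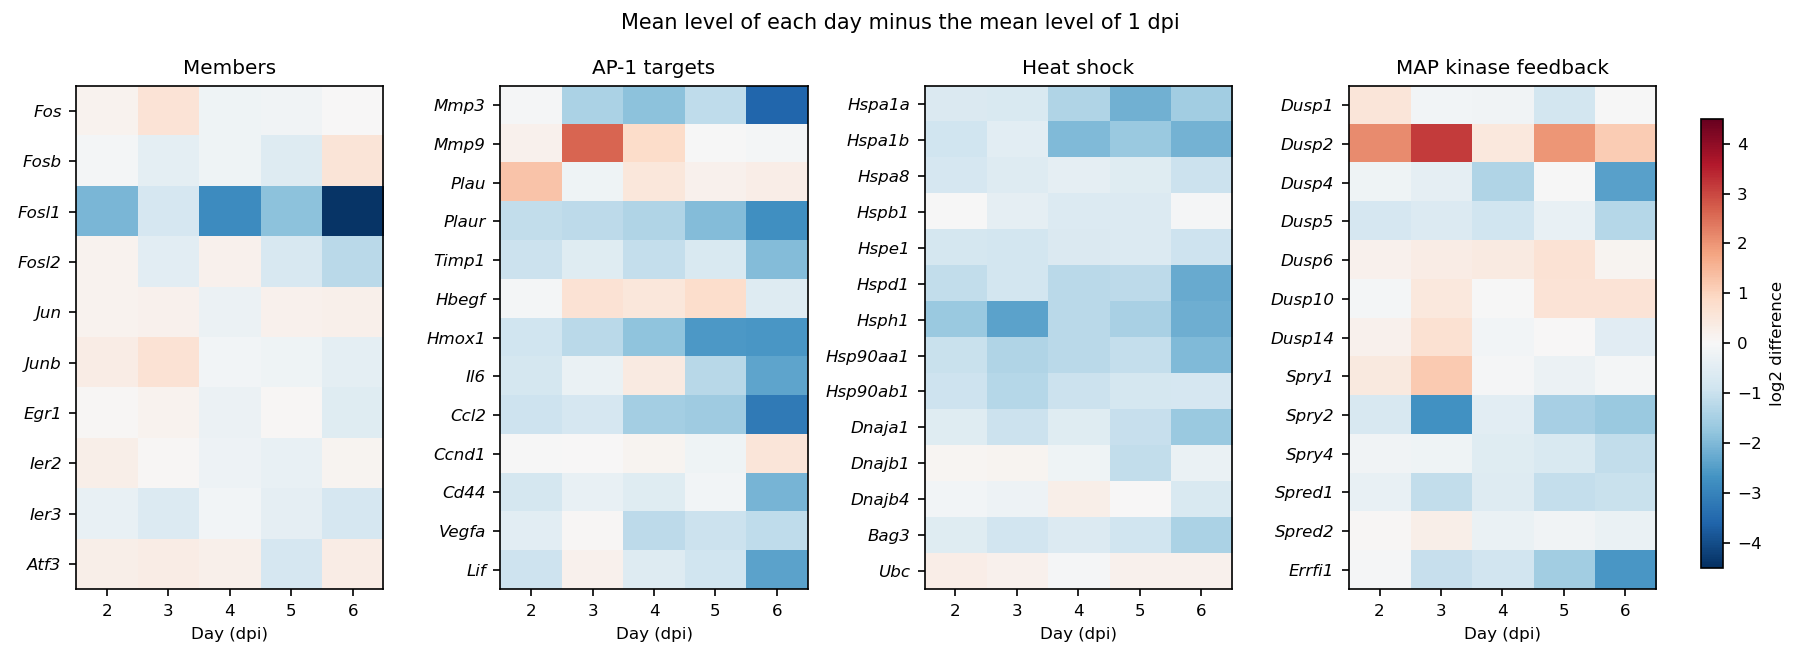
Mean log2 CPM of each day minus that of 1 dpi (colour) for the 10 members and tested genes of 3 lists (vertical axes) at 2 to 6 dpi (horizontal axes; 1 library at 5 dpi). At 6 dpi *Fosl1*, *Mmp3*, *Ccl2*, *Plaur*, *Errfi1* and *Hspd1* are in the blue range, below 1 dpi, while *Fos* and *Ier2* are near white.

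The genes most like *Fosl1* over the 17 libraries, by Pearson's r of log2 CPM among 8909 genes, were *Nolc1* (r = 0.94), *Exosc1* (0.93), *Csf1* (0.92), *Dhps* (0.92) and *Hmga1* (0.90). Those most like *Fos* were *Sirt2* (0.93), *Acap2* (0.91), *Tprgl* (0.88), *Setd7* (0.88) and *Tmem159* (0.86), and those most like *Atf3* were *Heg1* (0.78), *Nr4a3* (0.76), *Ubr2* (0.73), *1110046J04Rik* (0.73) and *Itpkc* (0.73). The members themselves were left out of the genes compared. The values describe these libraries, which share days, depth and normalisation, and were chosen as the highest of many.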

How the data were processed

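MARS-seq libraries were made from poly-A RNA of sorted CFs, primed with poly-dT. The deposited values are raw counts per gene, which the authors obtained with bcl2fastq (1.2.4) for demultiplexing, STAR for alignment to mm10 and featureCounts for counting. No collapsing of PCR copies is stated, so the floor of 3 counts covers counting error only. Totals ranged from 8021815 to 22029938 counts.

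Counts were tested in R (4.3.3) with edgeR (4.0.16), quasi-likelihood F-test, TMM normalisation, day as a factor of 6 levels in all 17 libraries, and Benjamini-Hochberg adjustment over 14030 genes at 0.05. The standard error is the log2 fold change divided by the square root of F. The code was tested on simulated data. The alternatives were DESeq2 (1.42.0), 2 other normalisations, 2 other filters, a robust spread, a replicate block, fewer days and each library left out. The 4 symbols *Ccn1*, *Ccn2*, *Mrtfa* and *Mrtfb* were matched through synonyms. Gene positions were taken from GENCODE vM21 (GRCm38), another annotation release than that of the counting, and promoters from RefSeq on GRCm38.p6, of which 7 of the 10 members matched. Named list genes had an adjusted p under 0.05 and a mean of at least 100 counts, at most 3 in each direction, by size of change; where none passed, the most abundant could be named. Others are marked in the text as named after their values were seen. The values of 1 gene of the AP-1 target list are not reported here. The members and lists were chosen with earlier results of these data known.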

Additional observations from a re-analysis of the deposited data

How the results depend on the processing

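The fall of *Fosl1* between 1 and 6 dpi passed the threshold in 25 of 25 alternatives in which it could be tested, with log2 fold changes of -4.59 to -3.72. Between 3 and 4 dpi it passed in 8 of 24, with -2.68 to -1.49. Of 1534 values of members by comparison and alternative, 47 had the other sign, called in neither fit, and 0 reversed where called. Other scalings moved the median of all genes by at most 0.042. Members called over the time course were 3 by DESeq2 and 3 with every gene of at least 1 count. When 10 counts were required of every library there were 0, here and between 1 and 6 dpi and 3 and 4 dpi, since *Fosl1*, with 9 counts in a library, was then not tested. With every gene of at least 1 count, 1 member was called at 2 against 1 dpi, 1 at 3 against 2 dpi, 2 at 6 against 4 dpi, 2 at 6 against 1 dpi and 1 in the mean of 3 to 5 dpi. Fitted on the libraries of the days compared alone, 1 was called at 2 against 1 dpi and 0 at 4 against 3 dpi. At 4 against 3 dpi, 0 were called with upper-quartile normalisation, 0 with a robust spread, 0 with the replicate block and 2 by DESeq2. Without the 3 dpi libraries, 2 were called at 6 against 1 dpi. With 1 library left out, members called ranged from 1 to 3 over the time course, 0 to 1 at 4 against 3 dpi, 0 to 1 at 6 against 4 dpi and 1 to 2 at 6 against 1 dpi. AP-1 targets, heat shock and MAP kinase feedback genes that fell ranged from 7 to 10, 5 to 10 and 1 to 5. Over all genes, calls were 2099 over the time course, 25, 412, 380 and 72 at the steps in order, 1700 at 6 against 1 dpi and 1050 in the mean of 3 to 5 dpi. DESeq2 called 3757 over the time course and 104, 1042, 879 and 807 at the steps. With every gene of at least 1 count they were 3729, 153, 980, 866 and 882. Requiring 10 counts of every library left 10 at 2 against 1 dpi and 140 at 6 against 4 dpi. On the days compared alone the steps gave 63, 252, 125 and 14, and without 3 dpi the step to 6 dpi gave 292. With 1 library left out they ranged from 1307 to 3466 over the time course, 13 to 32, 46 to 734, 126 to 722 and 3 to 1402 at the steps, 763 to 2577 at 6 against 1 dpi and 780 to 1601 in the mean of 3 to 5 dpi. The replicate block gave 174, 243 and 28 genes at 3 against 2, 4 against 3 and 6 against 4 dpi. Replicate numbers did not pair the libraries, with a mean r of 0.011 over 30 same-numbered pairs and -0.005 over 72 others. Apart from the filter that removed *Fosl1*, the cause was not tested. *Fosl1* at 6 dpi rested on 9 to 45 counts, which limits its precision.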
